A study of Rattus norvegicus with 6 samples.

Results

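Crystallins are the proteins first found as the bulk of the eye lens, and several of them are also made in other organs. Messenger RNA of 10 crystallin genes was followed in the renal cortex of rats: Cryab, Cryga, Crygb, Crygc, Crygd, Cryge, Crygs, Cryz, Cryl1 and Crym. They are 10 of 15645 genes that the array's RefSeq accessions name. Every probe that was not a control and whose RefSeq accession belongs to 1 of these genes was taken, which gave 18 of the 61537 probes. To be tested, a probe had to stand well above background in 3 or more of the 6 rats: 12 probes of 8 crystallin genes did, and 44305 probes in all. The 10 genes were chosen by their signals in the DNPT and vehicle rats described here, so their differences between the groups are given as a description, with no test. The animals were male Sprague-Dawley rats (Crl:CD(SD)), 5 weeks old at purchase and kept on a basal diet. For 4 weeks the 3 rats of the DNPT group received 200 mg/kg/day of N,N'-dinitrosopentamethylenetetramine, which carries N-nitroso groups, and the 3 rats of the vehicle group received corn oil. Each rat had its own 1-colour Agilent array.

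Signals are the processed signal, an intensity after correction for background, and log2 values are relative to the 75th percentile of the array. Means are ± SD over n = 3 rats, and a change is the DNPT mean minus the vehicle mean of the log2 values with its standard error (SE) from limma. The vehicle rats and DNPT replicate 1 shared slide 1, and DNPT replicates 2 and 3 were on slide 2, so that the difference of DNPT replicate 1 from the vehicle mean is the value within a slide. On the vehicle arrays 44730 to 45167 probes stood well above background, and on the DNPT arrays fewer, 42116 to 43402. Having only 3 arrays a group limits the precision. Defining genes of the renal cortex were present: 8 of 8 proximal tubule genes, 3 of 3 thick ascending limb genes and 4 of 4 podocyte genes were well above background on all 6 arrays. Across all 34915 features tested, limma with Benjamini-Hochberg adjustment at 0.05 called 0 (0%), and 4227 had an unadjusted p under 0.05.

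The crystallins fall into unrelated families. Cryab encodes alpha-B crystallin, a small heat shock protein that holds unfolding proteins in solution. The gamma-crystallins are compact structural proteins of the lens fiber cell, and in rodents the genes Cryga to Cryge stand side by side as copies of one another, while Crygs lies elsewhere. Cryz, Cryl1 and Crym encode enzymes that some animals have also recruited as lens proteins: a quinone reductase, a dehydrogenase of sugar acids and a reductase that binds thyroid hormone.

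The gamma-crystallin cluster is shown first because its members differed from each other more than the other crystallins did. In the RefSeq annotation of rat assembly GRCr8, Cryge, Crygd, Crygc, Crygb and Cryga follow each other on chromosome 9 with no other protein-coding gene between them. Promoter entries of RefSeq matched 8 of the 10 genes. The 250 bases before the start are printed for Cryga (chr9:73978383-73978632, minus strand) and Crygd (chr9:73937410-73937659, minus strand). The Cryga probe and the second Crygd probe moved together over the rats, while the other Crygd probes did not follow, as described below. Crygb (chr9:73957265-73957514, minus strand) is set beside Cryga and Crygd as a copy that was not well above background on any array. Each runs 5′ to 3′ and ends at the base before the start. Capitals mark matches of CCCTTTTGTG, the longest run of letters that every window of the cluster holds, and of TATATA, with overlapping matches of TATATA joined.
Cryga: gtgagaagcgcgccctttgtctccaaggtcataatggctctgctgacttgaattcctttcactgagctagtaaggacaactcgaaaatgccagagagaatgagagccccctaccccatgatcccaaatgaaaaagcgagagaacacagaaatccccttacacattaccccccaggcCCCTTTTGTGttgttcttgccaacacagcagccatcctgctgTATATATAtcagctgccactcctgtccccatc
Crygd: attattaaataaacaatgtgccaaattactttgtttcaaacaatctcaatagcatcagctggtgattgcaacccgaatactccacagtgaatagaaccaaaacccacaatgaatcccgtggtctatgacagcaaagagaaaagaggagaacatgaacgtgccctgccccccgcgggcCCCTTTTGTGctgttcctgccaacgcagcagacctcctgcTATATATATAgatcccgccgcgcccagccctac
Crygb: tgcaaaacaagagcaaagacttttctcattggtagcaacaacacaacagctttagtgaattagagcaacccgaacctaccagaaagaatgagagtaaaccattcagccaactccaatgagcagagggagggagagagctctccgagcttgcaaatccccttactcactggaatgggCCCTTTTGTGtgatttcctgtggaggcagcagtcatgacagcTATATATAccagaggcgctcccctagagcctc

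Both motifs were searched on both strands, and TATATA reads the same on each. CCCTTTTGTG began at position -74 in Cryga, -73 in Crygd and -74 in Crygb, counted back from the start. TATATA began at -32, -33 and -32. All 5 promoters of the cluster held both motifs, whether or not the gene gave a signal. Among 33469 promoter windows of 250 bases in the rat table, 0.0956% held CCCTTTTGTG and 5.45% held TATATA. The first share is a description only, since the motif was read from these windows. Cryga and Crygd shared 67.2% of the 250 bases in a global alignment, against 66.8% for Cryga and Crygb and 76% for Crygd and Cryge. Whether likeness in this window bears on the signals was not tested. A match describes these letters only.

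Cryga, which encodes gamma-A crystallin, differed widely between rats within the vehicle group. The signal of its single probe was 807 in vehicle replicate 1, 17989.7 in vehicle replicate 2 and 819 in vehicle replicate 3. In DNPT replicates 1, 2 and 3 it was 25158, 22228 and 28292. Vehicle replicate 2 stood with the DNPT rats, 20.9-fold above vehicle replicate 1, while vehicle replicates 1 and 3 were low. The groups did not overlap, since the lowest DNPT value was 1.67-fold above vehicle replicate 2 after scaling. The log2 signal was 4.62 ± 0.18 in DNPT rats and 0.87 ± 2.50 in vehicle rats, a change of 3.75 (SE 1.20). The wide vehicle SD came from the gap between vehicle replicate 2 and the other vehicle rats. The change was 3.00 (SE 1.27) without vehicle replicate 1, 5.19 (SE 0.14) without vehicle replicate 2 and 3.06 (SE 1.30) without vehicle replicate 3. It was 3.65 to 3.81 with 1 DNPT rat left out, and 3.63 with slide 1 alone. The small SE of 0.14 arose only where the vehicle rat that stood with the DNPT rats was left out. In RNA from whole tissue, more cells with a transcript and more transcript per cell cannot be told apart.

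Crygd, which encodes gamma-D crystallin, had 3 probes that disagreed. The second probe (A_44_P104870) had the rat pattern of Cryga. Its signal was 140.1 in vehicle replicate 1, 2659.9 in vehicle replicate 2 and 126 in vehicle replicate 3, against 3663, 3912 and 5264 in DNPT replicates 1, 2 and 3. Vehicle replicates 1 and 3 were again low and the groups did not overlap. The log2 signal was 2.05 ± 0.34 in DNPT rats and -1.79 ± 2.41 in vehicle rats, a change of 3.84 (SE 1.17), or 3.51 within slide 1. The change was 3.16 (SE 1.26) without vehicle replicate 1, 5.23 (SE 0.22) without vehicle replicate 2 and 3.13 (SE 1.25) without vehicle replicate 3. With 1 DNPT rat left out it was 3.67 to 4.01.

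The first Crygd probe (A_42_P477222) gave 356, 352 and 632 in vehicle replicates 1, 2 and 3 and 554, 206 and 199 in DNPT replicates 1, 2 and 3. Here vehicle replicate 3 was the highest rat and the groups overlapped, with a change of -0.31. The third Crygd probe (A_64_P024826) was well above background only in vehicle replicates 1 and 2, at 22.7 and 24.9. The Crygd change was 1.77 when its tested probes were averaged, so it depends on the probe. The gamma-crystallin copies are alike in sequence, and whether the second Crygd probe also binds Cryga transcripts was not tested. Over the 6 rats the log2 difference between the Cryga probe and this Crygd probe varied by 0.35, while each probe alone ranged over 5.46 and 5.61.

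**Figure D1:**
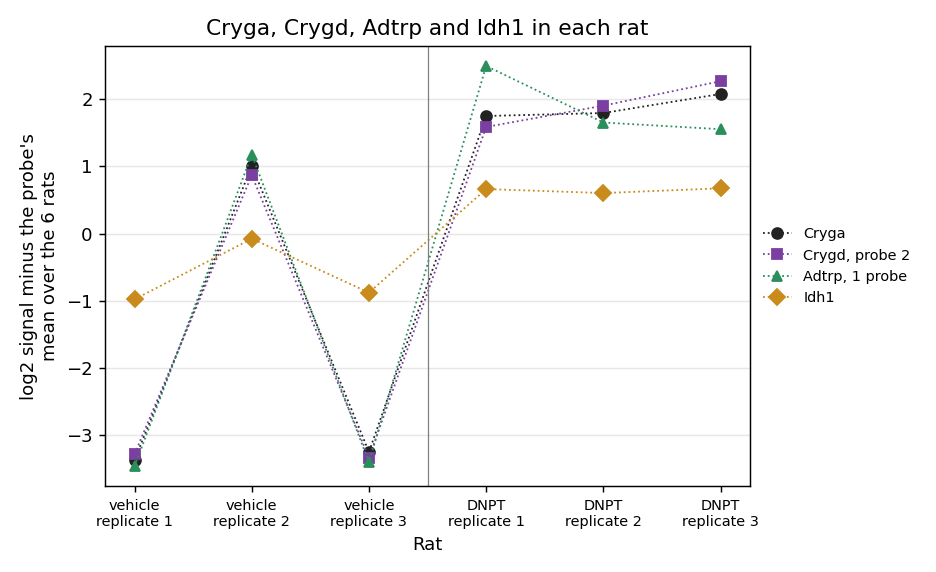
The log2 signal of 4 probes, each minus its own mean over the 6 rats (vertical axis), is plotted for each rat (horizontal axis), with dotted lines joining the values of a probe and no order among the rats of a group. Vehicle replicates 1 and 3 are the lowest rats for Cryga, the second Crygd probe, 1 Adtrp probe and Idh1, and vehicle replicate 2 lies between them and the DNPT rats.

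The profile of the second Crygd probe, which had the largest range among the crystallin genes well above background on all arrays, was set against 44238 tested probes with a value in every rat. Likeness was the root mean square distance between log2 profiles centred on their mean over the 6 rats. Within a distance of 1 lay 5 probes. The nearest named gene was Cryga (distance 0.14), followed by Adtrp, on chromosome 17 (distance 0.51), which encodes a membrane hydrolase of fatty acid esters. Ccdc42, on chromosome 10, came next among named genes, past that limit at 1.35, with signals of at most 14.3 in vehicle rats and 25.2 to 89.7 in DNPT rats. This Ccdc42 probe was well above background on only 3 arrays. Its vehicle signals lay under the lowest signals well above background on the vehicle arrays (16.5 to 17.8), so it was tested only through the DNPT rats. The other Ccdc42 probe did not follow it, with 18.7 to 28.2 in vehicle rats and 22.2 to 32.2 in DNPT rats. The other 3 probes within the limit had no gene name here, and in each of them vehicle replicates 1 and 3 were the lowest rats. The like Adtrp probe had a signal of 318, 8474 and 309.6 in vehicle replicates 1, 2 and 3 and of 17725, 8467 and 8262 in the DNPT rats. The other Adtrp probes did not follow it, with signals of 3419 to 4638 and of 5066 to 7146 over the 6 rats.

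Idh1, the next protein-coding gene beyond Cryga, encodes the cytosolic isocitrate dehydrogenase that makes NADPH. It was singled out after its values were seen. One of its probes read 43862, 87459 and 43855 in vehicle replicates 1, 2 and 3, and 122122, 100370.5 and 110258 in the DNPT rats. The other probe read 23692, 47206 and 24574 against 69197, 51508 and 53467. In both probes vehicle replicates 1 and 3 were lowest, vehicle replicate 2 came next and all DNPT rats were above it. The Idh1 log2 signal was 6.76 ± 0.04 in DNPT rats and 5.47 ± 0.50 in vehicle rats, a change of 1.29 (SE 0.25, limma adjusted p = 0.294 over all features).

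Of the 10 nearest protein-coding genes with a tested probe, 5 on each side of the cluster, the other 9 had changes of -1.01 to 0.36. Map2, a microtubule protein of neurons, ran the other way, with -2.74, -3.34 and -2.71 in vehicle replicates 1, 2 and 3 on the log2 scale and -3.74, -3.67 and -4.39 in the DNPT rats. Crygf, the gamma-crystallin copy that lies apart from the cluster, was at -4.62, -3.66 and -4.73 in the vehicle rats and -3.76, -4.06 and -4.11 in the DNPT rats. In Crygf, too, vehicle replicates 1 and 3 were the lowest rats, but its range over the rats was 1.07.

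**Figure D2:**
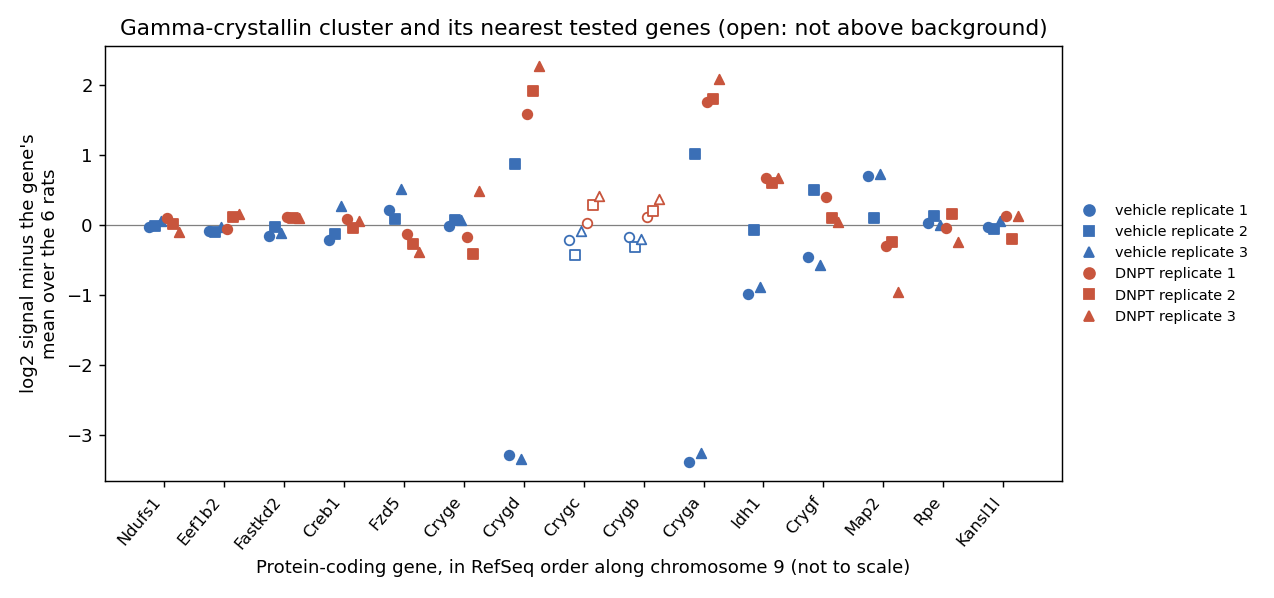
Each point is the log2 signal of a rat minus the gene's mean over the 6 rats (vertical axis), for the brightest tested probe of each protein-coding gene in RefSeq order on chromosome 9 (horizontal axis, not to scale), with colour for the group, shape for the replicate and open points for genes not above background. Crygd and Cryga range over 5.61 and 5.46, Idh1 over 1.65, and the other neighbours over 0.19 to 1.68.

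Crygb and Crygc, the copies between Crygd and Cryga, were at the floor of the array. Their 4 probes and the second probe of Cryge were well above background on no array, with signals of 3.53 to 5.19 in all rats. Scaled values of these 5 probes were higher in every DNPT rat than in every vehicle rat, and values below background are read here as having no order. The 75th percentile they were divided by was 953 to 1112 on the DNPT arrays and 1164 to 1329 on the vehicle arrays, and its part in this was not tested. The first probe of Cryge was well above background in 3 vehicle rats and in DNPT replicate 3. It read 25.8, 29.3 and 25.8 in vehicle replicates 1, 2 and 3 and 20.7, 15.0 and 29.2 in DNPT replicates 1, 2 and 3, with overlap and a change of -0.08 (SE 0.23). In vehicle replicate 2 and the DNPT rats, where Cryga and the second Crygd probe were high, no such step was seen in these copies.

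Crygs, which encodes gamma-S crystallin, the gamma member of the outer lens, lies on chromosome 11. Its 3 probes were well above background on all arrays. The brightest read 1558, 1591 and 2268 in vehicle replicates 1, 2 and 3 and 1838, 1824 and 1129.8 in DNPT replicates 1, 2 and 3. Vehicle replicate 3 was the highest rat and DNPT replicate 3 the lowest, and the groups overlapped. The change was 0.10 (SE 0.27), from 0.51 ± 0.39 in vehicle to 0.61 ± 0.39 in DNPT rats. The other probes had changes of -0.04 and 0.12.

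**Figure D3:**
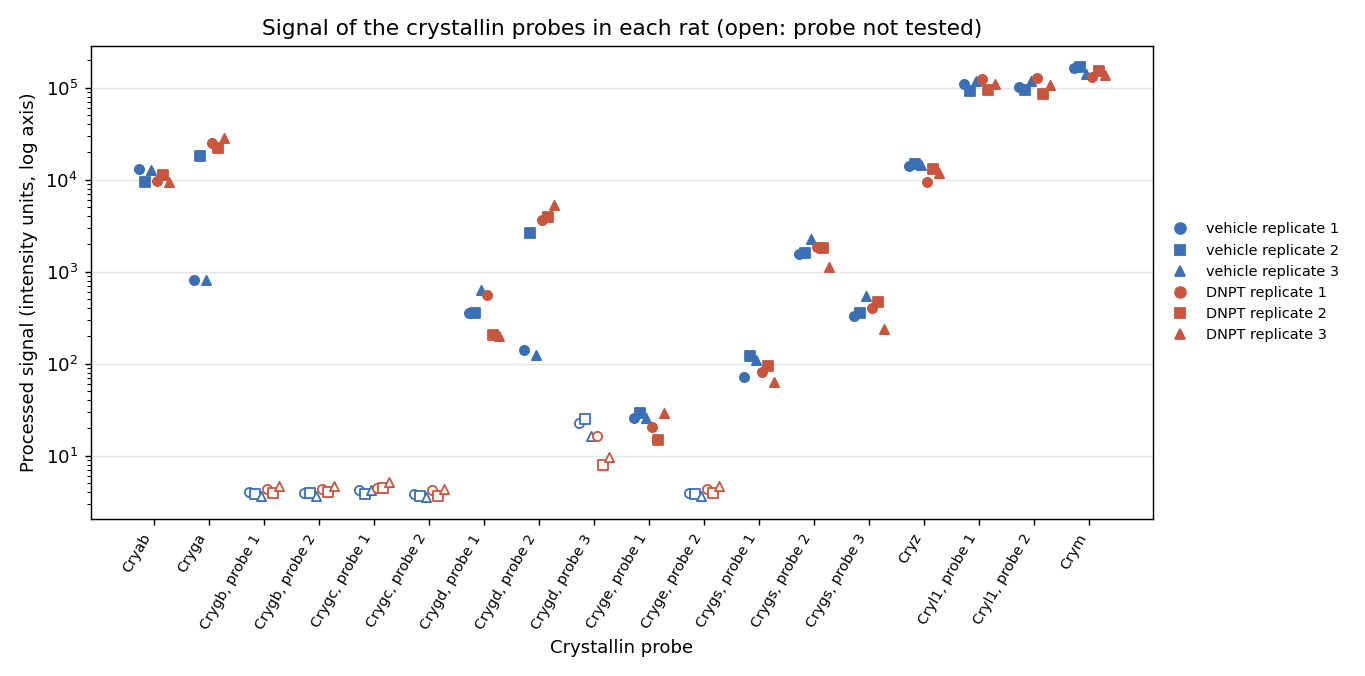
The processed signal (vertical log axis) of all 18 crystallin probes (horizontal axis) is shown for each rat, with colour for the group, shape for the replicate and open points for the 6 probes that were not tested. Vehicle replicates 1 and 3 stand far below the other rats for Cryga (807 and 819) and for the second Crygd probe (140.1 and 126), and in the other 10 tested probes the groups overlap after scaling, although the signal of Cryz plotted here is lower in all DNPT rats.

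Cryab was well above background in every rat, as was its partner gene Hspb2, which encodes another small heat shock protein. Cryab read 13065, 9320.3 and 12739 in vehicle replicates 1, 2 and 3 and 9563, 11362 and 9394 in the DNPT rats. No group stood apart. The log2 signal was 3.31 ± 0.24 in DNPT and 3.22 ± 0.35 in vehicle rats, a change of 0.09 (SE 0.22), or -0.11 within slide 1. Alpha-B crystallin is abundant in the renal medulla, where cells adapt to high salt. Among 9 measured genes of the collecting duct, inner medulla and osmolyte transport, 4 had positive and 5 negative changes, and 0 passed. Their summed signal, in multiples of the 75th percentile, was 145 to 153 in vehicle rats and 111 to 154 in DNPT rats. The water channel Aqp2 had a change of -0.34 (SE 0.16), the urea transporter Slc14a2 -0.26 (SE 0.10) and the aldose reductase Akr1b1 -0.10 (SE 0.25). The largest positive changes of the list, picked after their values were seen, were those of the water channel Aqp4 at 0.61 (SE 0.18) and the taurine transporter Slc6a6 at 0.45 (SE 0.16). Every DNPT value was above every vehicle value in Aqp4 and Slc6a6, as in 11.9% of all features, and below in Slc14a2, as in 8.32%.

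Of 16 tested small heat shock proteins, heat shock factors and chaperones, 0 passed in either direction by limma with Benjamini-Hochberg adjustment. The median change was -0.0035, against 0.01 over all features. In 1 gene every DNPT value was above every vehicle value and in 2 below, beside 11.9% and 8.32% of all features. The largest change of the list, picked after the values were seen, was that of Hspb3, 1 of these 2, at -0.98 (SE 0.18). Hspb1, the most studied relative of alpha-B crystallin, was at 1.84 ± 0.03 in DNPT against 1.90 ± 0.16 in vehicle rats. Hspb2 had a change of -0.36 (SE 0.15). The stress factor Hsf1 was at 0.21 (SE 0.37) and the lens factor Hsf4 at 0.05 (SE 0.21). The chaperones Hspa8 and Hsp90aa1 were at 0.21 (SE 0.13) and -0.24 (SE 0.16).

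Cryz, which encodes zeta-crystallin, reduces quinones with NADPH and also binds messenger RNA. It read 14029, 14839 and 14377 in vehicle replicates 1, 2 and 3 and 9495, 13207 and 11786 in the DNPT rats. All DNPT signals were lower before scaling, but the scaled groups overlapped, at 3.48 ± 0.36 in DNPT and 3.53 ± 0.08 in vehicle rats. The change was -0.05 (SE 0.19). Within slide 1, where DNPT replicate 1 was the lowest rat of all, it was -0.44. In kidney, zeta-crystallin has been studied for its binding to messages of ammonia production in acidosis. Glutamate dehydrogenase (Glud1), an enzyme of that pathway, measured 6.23 ± 0.04 in DNPT and 6.16 ± 0.06 in vehicle rats. Pck1, the key enzyme of glucose production, had a change of 0.19 (SE 0.13). Of the 8 tested ammonia genes described here 7 had positive changes (median 0.13) and 0 passed, and in 3 the DNPT rats lay above all vehicle rats, where 11.9% of all features did. Among 9 tested quinone reductases and related enzymes 7 had positive changes (median 0.07) and 0 passed. In 2 of these enzymes the DNPT rats lay above all vehicle rats, beside the same 11.9% of all features. The brightest of the list, the fatty acid dehydrogenase Hadh and the reductase relative Vat1, were at 0.25 (SE 0.27) and -0.27 (SE 0.22). Its largest change, picked after the values were seen, was that of the quinone reductase Nqo1 at 0.86 (SE 0.19).

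Cryl1, which encodes lambda-crystallin, oxidises L-gulonate in the pathway that turns glucuronate into xylulose. Its first probe read 110469, 92850.04 and 118999.7 in vehicle replicates 1, 2 and 3 and 124310.2, 93989 and 108194 in the DNPT rats. Its second probe gave the same order of rats on the log2 scale at both ends, with vehicle replicate 2 lowest and DNPT replicate 1 highest. The groups overlapped in both probes. The log2 signal was 6.73 ± 0.09 in DNPT and 6.42 ± 0.28 in vehicle rats, a change of 0.31 (SE 0.16), or 0.38 within slide 1. The second probe also had a change of 0.31. Cryl1 kept a positive change under all 18 alternatives, between 0.16 and 0.43. The genes of the proximal tubule, the main cell type of the cortex, also had positive changes in 8 of 8 cases (median 0.12, 0 passed). Of these genes only Miox was followed under the alternatives, and its change was -0.06 with quantile normalization. The summed signal of the 8 genes was 2025 to 2323 times the 75th percentile in DNPT rats and 1748.0 to 1951 times in vehicle rats. Their part in the Cryl1 change was not tested.

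Of 11 tested uronate and pentulose genes, 8 had positive changes (median 0.07) and 0 passed. Miox, which opens the inositol ring to glucuronate in proximal tubules, measured 9.09 ± 0.23 in DNPT and 9.01 ± 0.14 in vehicle rats. Ugdh, which makes UDP-glucuronate, had a change of -0.21 (SE 0.13). Akr1a1, which makes gulonate, was at 0.07 (SE 0.10) and the ketohexokinase Khk at 0.13 (SE 0.11).

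Crym, which encodes mu-crystallin, holds thyroid hormone in the cytosol together with NADPH. It read 162239, 165563 and 141768 in vehicle replicates 1, 2 and 3 and 131925, 149905 and 137790.1 in the DNPT rats. It varied least of the tested crystallins, by 1.33-fold over the 6 scaled values, and the groups overlapped. The log2 signal was 7.10 ± 0.20 in DNPT and 6.97 ± 0.05 in vehicle rats, a change of 0.13 (SE 0.12) that was -0.08 within slide 1 and -0.03 with quantile normalization.

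Of 12 tested thyroid hormone genes, 6 had positive and 6 negative changes and 0 passed. In 1 gene every DNPT value was above every vehicle value and in 2 below. The largest change of the list, picked after the values were seen, was that of the deiodinase Dio3, 1 of these 2, at -0.61 (SE 0.22). The receptor Thra measured 0.31 ± 0.06 in DNPT and 0.70 ± 0.08 in vehicle rats, with every DNPT value below every vehicle value, as in 8.32% of all features (limma adjusted p = 0.321). The receptor Thrb was at 2.50 ± 0.12 and 2.27 ± 0.07, with every DNPT value above, as in 11.9% of all features (adjusted p = 0.417 by limma). The deiodinase Dio1, which activates the hormone, had a change of -0.19 (SE 0.16), and the target genes Klf9 and Me1 had changes of 0.24 (SE 0.19) and 0.31 (SE 0.29).

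Of 13 other crystallin genes, 10 were on the array by accession and 8 were tested. Changes were positive in 4 and negative in 4, and 0 passed. The brightest were Cryzl1, a relative of zeta-crystallin, with 1.65 ± 0.20 in DNPT against 1.47 ± 0.05 in vehicle rats, and Cryba4, a beta-crystallin, at -2.22 ± 0.31 and -2.15 ± 0.28. Cryaa, the partner of alpha-B crystallin in the lens, and Crygn, which encodes gamma-N crystallin, stood out in DNPT replicate 3 and were picked after their values were seen. Cryaa read 239 there and 27.8 to 52.1 in the other rats, and Crygn 303 against 14.0 to 50.2. Liver genes (Alb, Apoa1, Ttr and Serpina1) were also highest in that rat, with a summed signal of 21.8 times the 75th percentile against 0.0918 to 2.53 in the other rats, and their part in these values was not tested.

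The lens list did not have the rat pattern of Cryga. Its summed signal was 1.72 to 2.54 in DNPT rats and 2.19 to 2.47 in vehicle rats, and vehicle replicate 2 had the lowest of the vehicle sums. Of its 11 genes on the array, 2 of 10 tested had positive changes, and Crybb3 was above background on no array. The liver list did not have it either, since its sum was 0.0918 in DNPT replicate 2, where Cryga was high.

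Over the 8 tested crystallin genes, 6 changes were positive and 2 negative, with a median of 0.11 against 0.01 over all 34915 features, and 0 of the 8 were called. Without overlap between the groups, 2 of the 12 tested probes (Cryga and the second Crygd probe) had DNPT above and 0 had DNPT below. Among all tested probes the shares were 11.4% and 8.43%. Nothing is read from these counts, as the genes were chosen with this comparison known. The changes of Cryga, Crygd and Cryl1 kept their sign under every alternative run, while those of Cryab, Cryge, Crygs, Cryz and Crym turned under at least 1. For Crygd every run used the second probe, alone or averaged with the first, so its sign depends on that probe. The first Crygd probe alone had a change of -0.31.

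**Figure D4:**
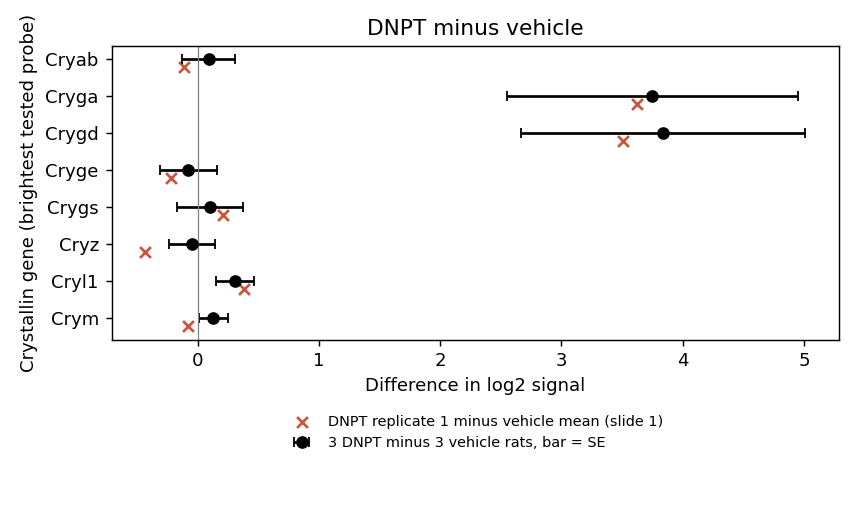
Black points with bars give the DNPT minus vehicle difference in log2 signal ± SE (horizontal axis) for the brightest tested probe of each of 8 crystallin genes (vertical axis), and crosses give DNPT replicate 1 minus the vehicle mean, the value within slide 1. Cryga (3.75) and Crygd (3.84) lie far to the right with wide bars, and the other 6 lie between -0.08 and 0.31.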

How the data were processed

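Total RNA of the renal cortex of 6 rats was labelled with Cy3 and hybridised to 1-colour arrays, per the labels. Scans were quantified with Agilent Feature Extraction 10.7, per the submitters' processing notes. In the deposited scanner files each spot has an intensity, the processed signal, corrected for background per the file headers. Values in the deposited table are a linear ratio of the processed signal to 1 constant per array, near the array's 75th percentile. This held to within 0.5% for 100% of the probes compared, and probes with the lowest table values were not compared. Columns of the deposited table are not centred (medians 0.112 to 0.116), and no source used here says how that table was made.

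Control spots and values flagged as outliers were left out. Each array's processed signals were divided by their 75th percentile, put on the log2 scale and compared with limma 3.58.1 in R 4.3.3 (lmFit and eBayes, two-sided, no covariates), and p-values of all features were adjusted together by Benjamini-Hochberg (threshold 0.05). A probe was tested if well above background on at least 3 arrays with at least 2 values per group, and a gene was represented by its brightest tested probe. The files used here have no gene name column, so probes were named by RefSeq accession without version through the GRCr8 gene table: 28206 probes matched 1 gene and 33331 none. An exact permutation test of 3 against 3 cannot go below 0.1. The crystallin genes and the lists were chosen with earlier results of these data known. The named genes were all crystallin genes, up to 4 called or else the 2 brightest members of each of 6 pathway lists, the genes Hspb1, Hspb2, Hsf1, Hsf4, Glud1, Ugdh, Akr1a1, Thra, Thrb, Dio1, Klf9, Aqp2, Slc14a2 and Akr1b1, and the 3 nearest profiles; others named in the text were picked after their values were seen. A gene of the ammonia list is not reported here and was left out of its counts. The procedure was tested on simulated data. Alternatives were other scalings, filters and probe rules, normexp with an offset of 50 on the median spot signal followed by quantile normalization (the scanner columns used here hold no mean spot signal), the value table, slide or replicate number as a block, an intensity trend, slide 1 alone and each rat left out. Promoters were aligned with Biopython 1.88.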

Additional observations from a re-analysis of the deposited data

How the results depend on the processing

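The limits are the small groups, the slide and the probes. Each group had 3 rats, slide 2 held no vehicle rat, and values with slide as a block or on slide 1 alone rest on DNPT replicate 1. The number of features called was 0, but 5 with normexp and quantile normalization together, 1 with slide as a block, and 0 to 623 with each rat left out. The 623 came without DNPT replicate 1. Without vehicle replicate 2 it was 3. Of these, 2 were Cryga and Crygd, which were chosen on these signals and are high in that rat, so the calls are no test of them. Of the 12 tested crystallin probes 2 had no overlap between the groups in either direction, beside 19.8% of all tested probes. On slide 1 alone, with 1 DNPT rat, 7 had none, beside 54.8%. With each rat left out it was 2 to 4, beside 27.3% to 41.6%, the 4 coming without vehicle replicate 3, DNPT replicate 1 or DNPT replicate 2. The labels name no pairs of rats. Deviations of same-numbered rats from their group means correlated at -0.18, -0.06 and -0.18, which with 3 rats a group cannot exclude pairing. With the replicate number as a block the number called was also 0, and Cryga was at 3.75.

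Several small changes of list genes turned sign, and none of them was called. With slide as a block or on slide 1 alone they were Hsf1 (-0.41), Akr1a1 (-0.012), Klf9 (-0.18), Cryzl1 (-0.054), Cryba4 (0.20), Khk (-0.068), Me1 (-0.11), Hadh (-0.26) and Vat1 (0.22). With quantile normalization they were Glud1 and Akr1a1 (-0.046 each), Miox (-0.059) and Khk (-0.036). With normexp and quantile normalization together they were Glud1 (-0.072), Akr1a1 (-0.0064) and Miox (-0.044). With 1 rat left out, changes ran from -0.15 to 0.0029 for Hspb1, -0.10 to 0.52 for Hsf1, -0.13 to 0.21 for Hsf4, -0.29 to 0.15 for Akr1b1, -0.21 to 0.10 for Cryba4 and -0.035 to 0.19 for Miox. The cause was not tested.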
